A study of Mus musculus with 78 samples.

Results

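The mRNAs of the aminoacyl-tRNA synthetases were followed in mouse CD8+ T cells that lost 1 nutrient or received 1 drug for 3 h. The members were chosen by name from the gene names of the count table: 34 names were listed, 33 of them had an entry among the 14695 genes, and Iars1 was not analysed here. Of the 33, 18 encode cytosolic enzymes and 15, whose names end in 2, encode mitochondrial enzymes. Lars2 was left out beforehand because its counts include ribosomal RNA. Gars1 and Kars1 each serve both compartments and were counted as cytosolic.

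Each synthetase joins 1 kind of amino acid to the matching tRNAs, which makes it the step at which the supply of free amino acids meets translation. A tRNA left uncharged activates the kinase GCN2, which phosphorylates eIF2α and starts the integrated stress response (ISR). The transcription factor ATF4, made more when eIF2α is phosphorylated, is known in mammalian cells to raise the transcription of amino acid transporters, biosynthetic enzymes and many cytosolic synthetases. In the cytosol a set of synthetases sits in a multisynthetase complex, held by the scaffold proteins of Aimp1, Aimp2 and Eef1e1. The measured genes of that set were Eprs1, Kars1, Lars1, Mars1, Qars1 and Rars1. Mitochondria charge their own tRNAs with enzymes made in the cytosol and imported.

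The cells came from spleen and lymph nodes of C57BL/6J mice and had been activated for 3 days. In the nutrient experiment the groups were No Arginine, No BCAA (the branched-chain amino acids leucine, isoleucine and valine), No Glucose, No Glutamine and No Methionine, and the Control group, which stayed in complete medium. In the drug experiment the groups were halofuginone, which inhibits the prolyl-tRNA synthetase activity of EPRS1, Torin1, an inhibitor of the kinase mTOR, 4EGI-1, which keeps eIF4G from joining the cap-binding protein eIF4E, and their solvent DMSO. From each lysate, total RNA and RNA of the pooled polysome fractions 9 to 13 were sequenced, in 3 libraries per group and 60 in all. The labels do not say that the 3 libraries came from separate animals or cultures, so the p-values measure the spread between these libraries, which may be technical. The drug libraries were labelled as polyA RNA and the nutrient libraries as total RNA, and the experiments were never fitted together.

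Total counts per library lay between 15144663 and 30637485 in total RNA and between 29917770 and 54272886 in polysome RNA of the nutrient experiment. In the drug experiment they lay between 17506526 and 23099949 for total RNA and between 17846266 and 24929556 for polysome RNA. All 33 members passed the filter on low counts in every fit. All 6 CD8 T cell markers had an entry, and the 1 B cell marker with an entry summed to at most 0.599 CPM in any library; markers of CD4 T, myeloid, dendritic, NK and erythroid cells had none, so their levels were not analysed here. Mitochondrial ribosomal RNA took 0.878% to 4.98% of the counts of total RNA libraries in the nutrient experiment, with the highest share in No Arginine replicate 2. Levels below are CPM, read counts scaled to a common library size with TMM factors. Levels of different genes were not compared, because transcript length was not taken into account. In these bulk samples fewer cells with an mRNA and less of it per cell cannot be told apart. A change is the log2 fold change against Control or DMSO with the standard error of the fit, and a gene was called when its Benjamini-Hochberg adjusted p from edgeR's quasi-likelihood test was under 0.05. "Rose" and "fell" are used of called genes.

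Promoter sequence was looked at first, because ATF4 is known to bind, with C/EBP partners, an element whose core reads TGATGNAA. RefSeq promoters (build GRCm38.p6, from 250 bases before to 50 bases after the start site) matched 12 cytosolic genes, Iars1 included, and 13 mitochondrial genes by symbol or synonym. The core was present on either strand in 5 of the 12 cytosolic promoters (41.7%) and in 0 of the 13 mitochondrial ones, where 1219 of all 27025 genes with a promoter held it (4.51%). The 5 genes were Aars1, with a match at -112 and another at 10 relative to the start site, Gars1 (-30), Iars1 (8), Tars1 (-15) and Yars1 (4). A match is only a stretch of letters and shows no binding. The windows of Aars1 (chr8:111033592-111033891, plus strand), Tars1 (chr15:11399609-11399908, minus strand), Gars1 (chr6:55037751-55038050, plus strand) and Yars1 (chr4:129189653-129189952, plus strand) are shown because they hold the core and these mRNAs rose in total RNA in 4 of the 5 deprivations. Sars1 and Eprs1 rose in 4 as well, and their promoters hold no match. Those of Farsb and Mars1, which rose in 3, hold none either. Cars1, Lars1 and Nars1, which rose in 4, and Vars1, which rose in 5, had no promoter to look at. A link between match and rise was not tested. The window of Kars1 (chr8:112011305-112011604, minus strand) holds no match and belongs to a gene called in 1 of the 5. Each reads 5′ to 3′ on the gene's own strand, and capitals mark the core or its reverse complement.
Aars1: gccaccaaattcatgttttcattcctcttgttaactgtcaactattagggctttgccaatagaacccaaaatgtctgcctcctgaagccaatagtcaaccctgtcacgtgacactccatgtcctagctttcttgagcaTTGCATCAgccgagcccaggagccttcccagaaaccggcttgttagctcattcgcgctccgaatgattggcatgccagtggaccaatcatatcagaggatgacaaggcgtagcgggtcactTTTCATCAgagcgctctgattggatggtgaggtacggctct
Tars1: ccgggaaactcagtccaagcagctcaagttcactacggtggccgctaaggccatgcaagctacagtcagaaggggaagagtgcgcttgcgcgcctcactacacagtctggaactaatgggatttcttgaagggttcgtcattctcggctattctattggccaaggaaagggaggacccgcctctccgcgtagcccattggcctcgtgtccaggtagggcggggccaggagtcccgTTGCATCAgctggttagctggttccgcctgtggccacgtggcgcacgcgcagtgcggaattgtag
Gars1: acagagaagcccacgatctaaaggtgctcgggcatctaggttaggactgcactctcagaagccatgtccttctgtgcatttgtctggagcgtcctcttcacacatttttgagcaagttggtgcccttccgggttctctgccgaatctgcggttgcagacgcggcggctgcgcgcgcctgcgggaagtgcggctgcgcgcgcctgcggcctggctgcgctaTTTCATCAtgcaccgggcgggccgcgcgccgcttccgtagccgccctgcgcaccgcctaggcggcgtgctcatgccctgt
Yars1: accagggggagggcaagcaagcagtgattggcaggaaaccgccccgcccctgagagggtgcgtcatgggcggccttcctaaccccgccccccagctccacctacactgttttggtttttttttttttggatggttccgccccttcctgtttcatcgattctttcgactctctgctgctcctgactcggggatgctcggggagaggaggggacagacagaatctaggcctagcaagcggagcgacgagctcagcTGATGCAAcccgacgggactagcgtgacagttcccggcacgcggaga
Kars1: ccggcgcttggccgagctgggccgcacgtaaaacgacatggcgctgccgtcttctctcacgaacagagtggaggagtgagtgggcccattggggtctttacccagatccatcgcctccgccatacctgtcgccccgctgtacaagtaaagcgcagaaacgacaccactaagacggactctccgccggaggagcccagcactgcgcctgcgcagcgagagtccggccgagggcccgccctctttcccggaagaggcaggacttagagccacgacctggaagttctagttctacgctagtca

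In total RNA most cytosolic synthetase mRNAs rose in 4 deprivations, and few changed in the fifth, No Arginine. The 5 comparisons share the Control libraries. Of the 18, 13 rose without BCAA, 14 without glucose, 13 without glutamine and 12 without methionine, where 16.4%, 21.8%, 20.4% and 19.5% of all genes tested rose and, both directions together, 30.1%, 40.8%, 39% and 35.2% were called. Qars1, without methionine, was the 1 cytosolic member that fell in any of the 4. Without arginine, 1 rose (Vars1) and 1 fell (Hars1) and none of the other 16 was called, where 9.24% of all genes were called, 5.1% higher and 4.14% lower. The median change of the 18 was 0.48, 0.47, 0.51 and 0.35 without BCAA, glucose, glutamine and methionine, and -0.02 without arginine; the median over all genes lay between -0.01 and 0.02 in the 5 comparisons. The summed share of counts on the 18 genes was 0.627% ± 0.0139, 0.592% ± 0.0221, 0.678% ± 0.0262 and 0.589% ± 0.0412 in the No BCAA, No Glucose, No Glutamine and No Methionine groups (SD, n = 3 each). It was 0.439% ± 0.0314 without arginine and 0.453% ± 0.0296 in Control. Without No Arginine replicate 2, the library with the highest mitochondrial ribosomal RNA, or without Control replicate 3, 1 member was called in that comparison, and without No Arginine replicate 3 there were 3. Both structural classes of the family were represented: without BCAA, 6 of 8 class I and 6 of 9 class II cytosolic members rose, Eprs1 with a domain of each being counted in neither.

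**Figure D1:**
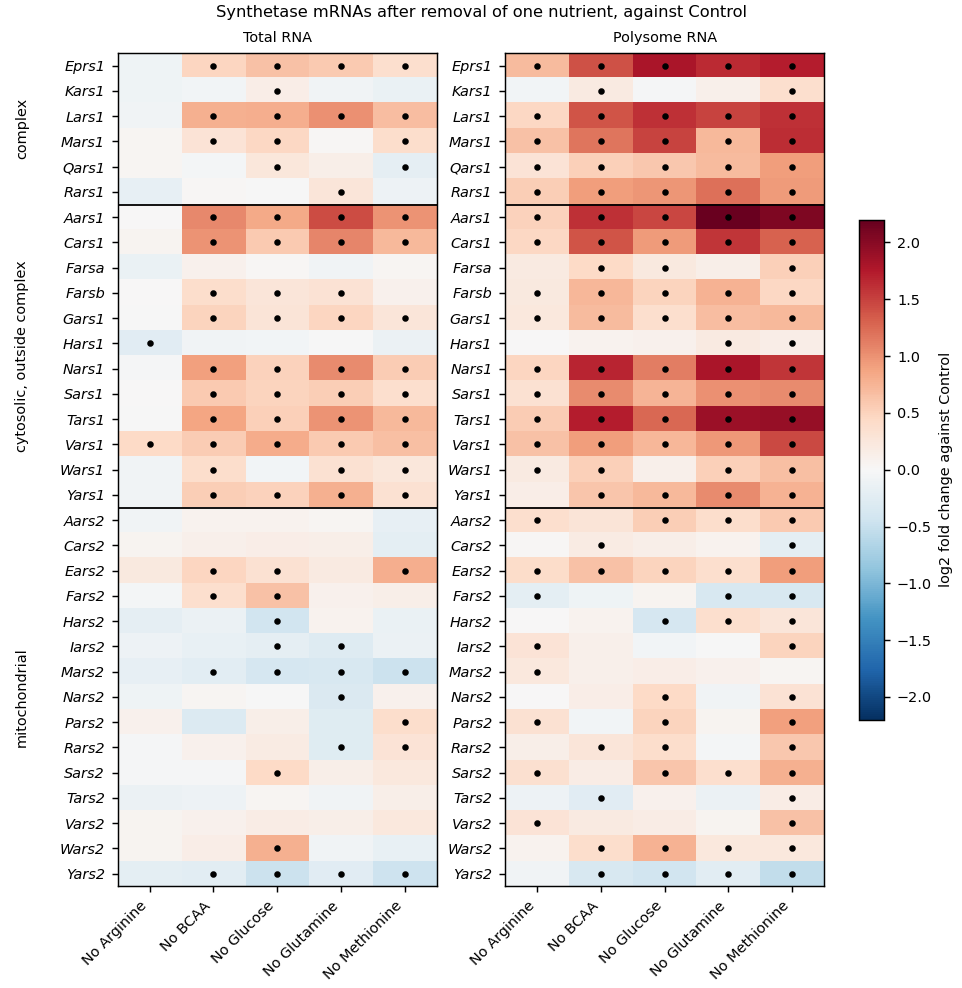
Log2 fold change against Control of each synthetase mRNA (rows, grouped as complex members, other cytosolic and mitochondrial enzymes) in each deprivation (columns), in total RNA on the left and polysome RNA on the right. Colour gives the change and a black point marks an adjusted p under 0.05. Most cytosolic rows are red in the last 4 columns of total RNA, where the No Arginine column has 1 higher and 1 lower call, and in polysome RNA the No Arginine column has 14 higher cytosolic calls.

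Aars1, which charges alanine tRNA, had the largest change of any member in total RNA. Its level was 553, 534 and 519 CPM in No BCAA, 471, 459 and 434 in No Glucose, 732, 644 and 691 in No Glutamine and 547, 462 and 518 in No Methionine libraries. It was 253, 237 and 282 CPM in No Arginine libraries, against 289.6, 234 and 245 CPM in Control. All libraries of the first 4 groups lay above every Control library, while the No Arginine libraries overlapped with those of Control. Relative to Control Aars1 rose by 1.06 ± 0.08, 0.83 ± 0.08, 1.43 ± 0.09 and 0.99 ± 0.08 in these 4 comparisons (adjusted p = 3.9e-09, 1.3e-07, 2.5e-11 and 1.1e-08), a 2.69-fold level without glutamine, and the change without arginine was 0.01 ± 0.08, adjusted p = 0.97.

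Cars1, Tars1 and Nars1, for cysteine, threonine and asparagine, rose in the same 4 deprivations. Cars1 had 249.7, 253 and 251 CPM without BCAA, 189, 194 and 183 without glucose, 276, 262 and 258 without glutamine, 211, 202 and 207 without methionine and 124, 129 and 143 without arginine, against 133, 127 and 118 CPM in Control. The changes were 0.99 ± 0.06, 0.58 ± 0.06, 1.07 ± 0.06, 0.71 ± 0.06 and, without arginine, 0.07 ± 0.06. The first 4 were called, with adjusted p of at most 3e-07, and their libraries did not overlap with Control. Tars1 had 351, 324 and 337 CPM without BCAA, 283, 263 and 252 without glucose, 379, 351 and 369 without glutamine, 314, 290.5 and 306 without methionine and 182, 167 and 203 without arginine, against 211, 169.7 and 174 CPM in Control. It rose by 0.87 ± 0.08, 0.52 ± 0.08, 0.99 ± 0.08 and 0.71 ± 0.08 in the first 4 of these comparisons, again with no overlap. Nars1 had 693, 640.0 and 695 CPM without BCAA, 547, 504 and 482 without glucose, 773, 717 and 746 without glutamine, 559, 506 and 525 without methionine and 349.7, 322 and 391 without arginine, against 402, 331 and 349 CPM in Control. Its changes were 0.91 ± 0.08, 0.50 ± 0.08, 1.05 ± 0.08 and 0.56 ± 0.08 in the 4 comparisons in which it was called, without overlap with Control.

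**Figure D2:**
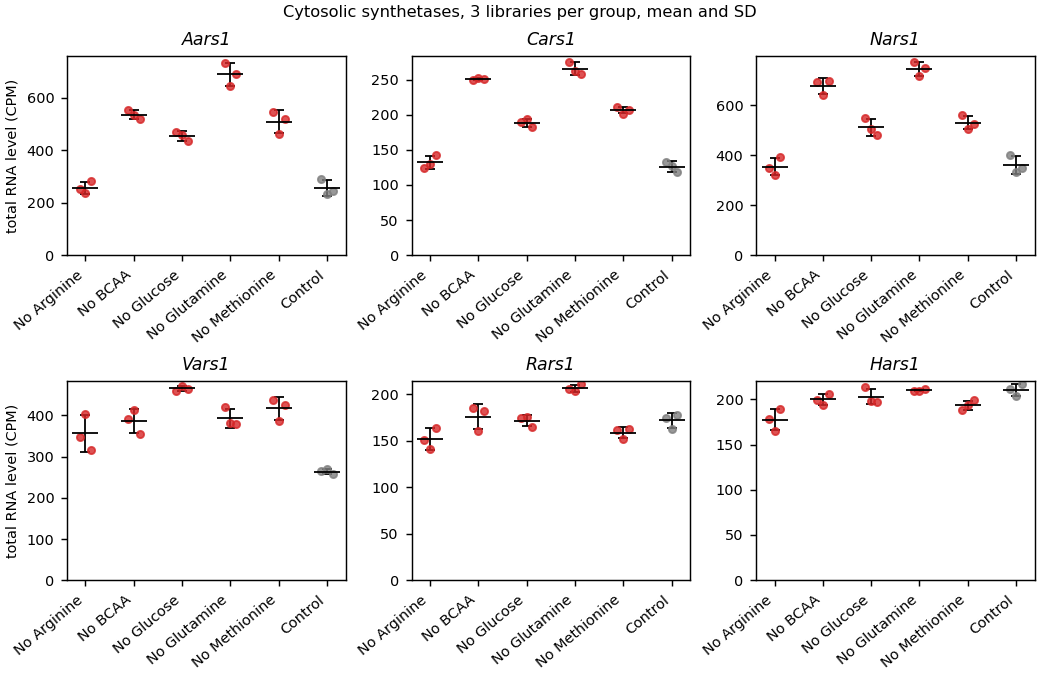
Total RNA level in CPM of 6 cytosolic synthetase mRNAs in each of the 3 libraries per group (points), with the group mean and SD (black bars). The deprived groups are red and Control, on the right of each panel, is grey. Aars1, Cars1 and Nars1 stand above Control in 4 deprivations and overlap with it without arginine, Vars1 stands above Control in all 5, and Rars1 and Hars1 stay near Control in most.

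Sars1 (serine), Yars1 (tyrosine), Gars1 (glycine) and Eprs1, the fused glutamyl- and prolyl-tRNA synthetase, also rose in the same 4 deprivations. Sars1 had 652, 634 and 632 CPM without BCAA, 611, 594 and 593 without glucose, 633, 619 and 622 without glutamine and 529, 548 and 579 without methionine, against 442, 415 and 428 CPM in Control. The 4 groups stood clear of Control, and Sars1 rose by between 0.37 ± 0.06 without methionine and 0.58 ± 0.06 without BCAA. Yars1 had 216, 209.7 and 210.3 CPM without BCAA, 208, 210.1 and 204 without glucose, 256, 242 and 251 without glutamine and 187, 170.1 and 191 without methionine, against 146, 139 and 151 CPM in Control. The change was largest without glutamine (0.78 ± 0.06, adjusted p = 1.2e-09). Gars1 changed by 0.49 ± 0.06, 0.28 ± 0.06, 0.47 ± 0.06 and 0.27 ± 0.06, and its libraries without BCAA (834, 808 and 845 CPM) lay above those of Control (609, 569.9 and 590.2 CPM). Eprs1 changed by 0.47 ± 0.10, 0.65 ± 0.10, 0.57 ± 0.10 and 0.36 ± 0.10. Its level was highest without glucose (735, 686 and 681 CPM) and uneven in Control (507, 393 and 438 CPM).

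Vars1, for valine, was the 1 member that rose in all 5 deprivations. It had 347, 404 and 317 CPM without arginine, 391, 414 and 356 without BCAA, 460.4, 472 and 464 without glucose, 420.1, 381 and 379 without glutamine and 438, 387 and 426 without methionine, against 264, 269.8 and 257 CPM in Control. Every deprived library was above every Control library. The changes were 0.43 ± 0.08, adjusted p = 0.0014 without arginine and 0.55 ± 0.08, 0.82 ± 0.08, 0.58 ± 0.08 and 0.66 ± 0.08 in the others. The call without arginine held with each library left out in turn (0.34 to 0.51).

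Farsb, Mars1 and Wars1 rose in 3 deprivations each. Farsb, the beta subunit of phenylalanyl-tRNA synthetase, rose without BCAA (0.38 ± 0.07), glucose (0.27 ± 0.07) and glutamine (0.33 ± 0.07), whereas Farsa, the alpha subunit, was not called in any of the 5, with changes between -0.14 and 0.09. Wars1, for tryptophan, rose without BCAA (0.39 ± 0.05), glutamine (0.34 ± 0.05) and methionine (0.26 ± 0.05), and had -0.07 ± 0.05 without glucose. Hars1 (histidine), Kars1 (lysine), Qars1 (glutamine) and Rars1 (arginine) stayed within 0.27 of Control in every comparison. Among them Kars1 rose without glucose by 0.15 ± 0.06, adjusted p = 0.039, a call lost in 5 of the 6 fits that left out 1 library (0.12 to 0.19). Hars1 had 178, 165 and 189 CPM without arginine, against 211, 204 and 217 CPM in Control, and fell by 0.25 on the log2 scale (adjusted p = 0.012). The groups did not overlap, but that call was lost without No Arginine replicate 2 or without Control replicate 3, the change over the 6 left-out fits being -0.29 to -0.20.

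The synthetases of the removed amino acids could be followed both in their own deprivation and in the others. Rars1, the arginine enzyme, had 151, 141 and 164 CPM without arginine, against 175, 163 and 178 CPM in Control, a change of -0.18 ± 0.07, adjusted p = 0.11. The groups overlapped in 1 library, and the mitochondrial Rars2 had -0.03 ± 0.08, adjusted p = 0.86. Mars1, the methionine enzyme, had 237, 224 and 266 CPM without methionine, against 176, 188 and 189 CPM in Control, and rose by 0.39 ± 0.07, adjusted p = 7.3e-05. It rose also without glucose (0.45 ± 0.07) and BCAA (0.29 ± 0.07), and tested directly the level without glucose and that without methionine differed by 0.06 ± 0.07, adjusted p = 0.53. Its mitochondrial partner Mars2 fell without methionine (-0.47 ± 0.07, adjusted p = 4e-05).

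Qars1, the glutamine enzyme, had 292, 272 and 281 CPM without glutamine, against 271, 247 and 256 CPM in Control (0.13 ± 0.06, adjusted p = 0.082), and Ears2, which charges mitochondrial glutamate tRNA, had 0.20 ± 0.10, adjusted p = 0.13. Neither was called. For Qars1 both called changes lay elsewhere, a rise of 0.24 ± 0.06, adjusted p = 0.0019 without glucose and a fall of 0.20 on the log2 scale without methionine (adjusted p = 0.0096, lost without Control replicate 1, -0.23 to -0.16 over 6 fits). With BCAA removed, Lars1, the leucine enzyme, had 269.9, 233 and 262 CPM, against 199, 116 and 132 CPM in Control, of which the first library stood apart, and rose by 0.78 ± 0.15, adjusted p = 0.00055. Lars1 rose by 1.01 ± 0.15 without glutamine, and the direct difference between No BCAA and No Glutamine was -0.23 ± 0.15, adjusted p = 0.34. Vars1 without BCAA was lower than without glucose, by 0.27 on the log2 scale (adjusted p = 0.015). Iars2 and Vars2, for isoleucine and valine in mitochondria, had -0.16 ± 0.06, adjusted p = 0.051 and 0.10 ± 0.09, adjusted p = 0.46.

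The 5 deprivations were also tested against each other, in 10 pairs that leave Control out. No Arginine was lower than No BCAA for 15 cytosolic members, than No Glucose for 15, than No Glutamine for 13 and than No Methionine for 13, where 12%, 19.8%, 19.3% and 14.4% of all genes were lower. In both directions together 20.3%, 37.2%, 36.1% and 25.1% of all genes were called in these pairs, and 8.27%, 17.4%, 16.9% and 10.7% were higher. Qars1 was the 1 cytosolic member higher without arginine than in another deprivation (0.24 ± 0.06 against No Methionine). No Glutamine was higher than No Methionine for 10 cytosolic members and lower for 1 (Mars1, -0.36 ± 0.07), where 12.9% of all genes were higher and 12.8% lower (25.7% called). Aars1 differed there by 0.44 ± 0.08, Nars1 by 0.49 ± 0.08 and Yars1 by 0.45 ± 0.06. No Glucose was lower than No Glutamine for 8 (Aars1 -0.60 ± 0.08, Nars1 -0.55 ± 0.08, Cars1 -0.49 ± 0.06, Tars1 -0.46 ± 0.08, Wars1 -0.41 ± 0.05). It was higher for 3: Mars1 (0.42 ± 0.07), Vars1 (0.24 ± 0.08) and Kars1 (0.23 ± 0.06). Over all genes 16.7% were lower and 15.8% higher in that pair (32.5% called). No BCAA was higher than No Glucose for 6 cytosolic members, Wars1 (0.45 ± 0.05) and Cars1 (0.41 ± 0.06) among them, and lower for 3, where 14.8% of all genes were higher and 13.9% lower (28.7% called). It was higher than No Glutamine for 1 and lower for 4, Aars1 (-0.37 ± 0.08) among them, where 6.76% of all genes were higher and 7.42% lower (14.2% called). Against No Methionine it was higher for 6, where 6.68% of all genes were higher and 6.68% lower (13.4% called). No Glucose was higher than No Methionine for 4, led by Qars1 (0.44 ± 0.06), and lower for Wars1, where 16.6% of all genes were higher and 17.4% lower (34% called).

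Other ISR genes rose in the same 4 deprivations, and most of them also in the fifth. Of 26 tested genes on a list of ISR genes without synthetases, 25 rose in each of No BCAA, No Glucose, No Glutamine and No Methionine, and 19 rose without arginine. Over all genes 16.4%, 21.8%, 20.4% and 19.5% rose in these 4, and 5.1% without arginine. Ddit3, which encodes the stress factor CHOP, rose by 1.24 ± 0.07 without arginine and by 3.27 ± 0.07, 2.89 ± 0.07, 3.55 ± 0.07 and 3.02 ± 0.07 in the other 4. Atf4 rose by 0.37 ± 0.06, adjusted p = 0.00031 without arginine and by 0.58 to 0.77 in the others. Asns, the asparagine synthetase that ATF4 is known to induce, had 0.06 ± 0.06, adjusted p = 0.61 without arginine and rose by 0.88 ± 0.06, 0.57 ± 0.06, 0.91 ± 0.06 and 0.62 ± 0.06 in the others. The list overlaps lists of earlier work on these data, and its direction is no independent evidence.

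The partners of the synthetases were counted in the same way. Of 17 genes for complex scaffolds, tRNA editing, transamidation, tRNA export and other steps of tRNA charging, 2 rose without BCAA, 4 without glucose, 2 without glutamine and 3 without methionine, where 16.4%, 21.8%, 20.4% and 19.5% of all genes rose, and at most 3 fell in a deprivation. Xpot, the tRNA exporter, rose without BCAA (0.46 ± 0.08), glutamine (0.34 ± 0.08) and methionine (0.36 ± 0.08). Mtfmt, which formylates the mitochondrial initiator tRNA, fell without glutamine (-0.75 ± 0.08), glucose (-0.56 ± 0.08) and BCAA (-0.32 ± 0.08). Of the scaffold genes Aimp2 fell without glucose, glutamine and methionine (-0.25 ± 0.08, -0.38 ± 0.08 and -0.24 ± 0.08).

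The mitochondrial synthetase mRNAs went both ways. Of the 15, 2 rose and 2 fell without BCAA, 4 rose and 4 fell without glucose, 0 rose and 5 fell without glutamine, and 3 rose and 2 fell without methionine. The count of 0 was the same at an unadjusted p under 0.05 in edgeR and in DESeq2. Over all genes 16.4%, 21.8%, 20.4% and 19.5% rose and 13.6%, 19%, 18.6% and 15.7% fell in the 4 comparisons. Without arginine 0 were called, 3 being lower and 0 higher at an unadjusted p under 0.05 in edgeR, and 0 were called by DESeq2. The medians lay between -0.08 and 0.13, so that as a group they stayed near all genes.

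Ears2, Fars2 and Wars2 were the mitochondrial members with the largest rises. Ears2 had 12.2, 14.0 and 14.2 CPM without methionine, 10.2, 11.2 and 10.8 without BCAA and 9.97, 8.75 and 10.5 without glucose, against 8.28, 7.16 and 7.75 CPM in Control, with no overlap. It rose by 0.80 ± 0.10, adjusted p = 2.2e-06, 0.47 ± 0.10 and 0.34 ± 0.10 in these comparisons. Fars2, for phenylalanine, had 31.1, 33.3 and 32.0 CPM without glucose and 28.1, 25.6 and 26.3 without BCAA, against 20.6, 20.7 and 20.4 CPM in Control. It rose by 0.64 ± 0.07, adjusted p = 3.7e-07 and 0.37 ± 0.07. Wars2, for tryptophan, rose without glucose by 0.77 ± 0.10, adjusted p = 2.7e-06: its libraries held 17.8, 15.9 and 17.6 CPM, against 10.0, 9.13 and 10.8 CPM in Control. Direct tests put Wars2 higher without glucose than without BCAA, glutamine, methionine and arginine (No Glucose against No Methionine, 0.93 ± 0.10; No Arginine against No Glucose, -0.72 ± 0.10). Cytosolic Wars1 was lower without glucose than without methionine (-0.32 ± 0.05). Sars2 rose without glucose (0.44 ± 0.11), and Pars2 and Rars2, for proline and arginine, rose without methionine (0.39 ± 0.11 and 0.30 ± 0.08). The call of Ears2 without glucose was lost without Control replicate 2 or No Glucose replicate 3 (0.28 to 0.41 over the 6 fits), and that of Pars2 without No Methionine replicate 3 (0.34 to 0.42).

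**Figure D3:**
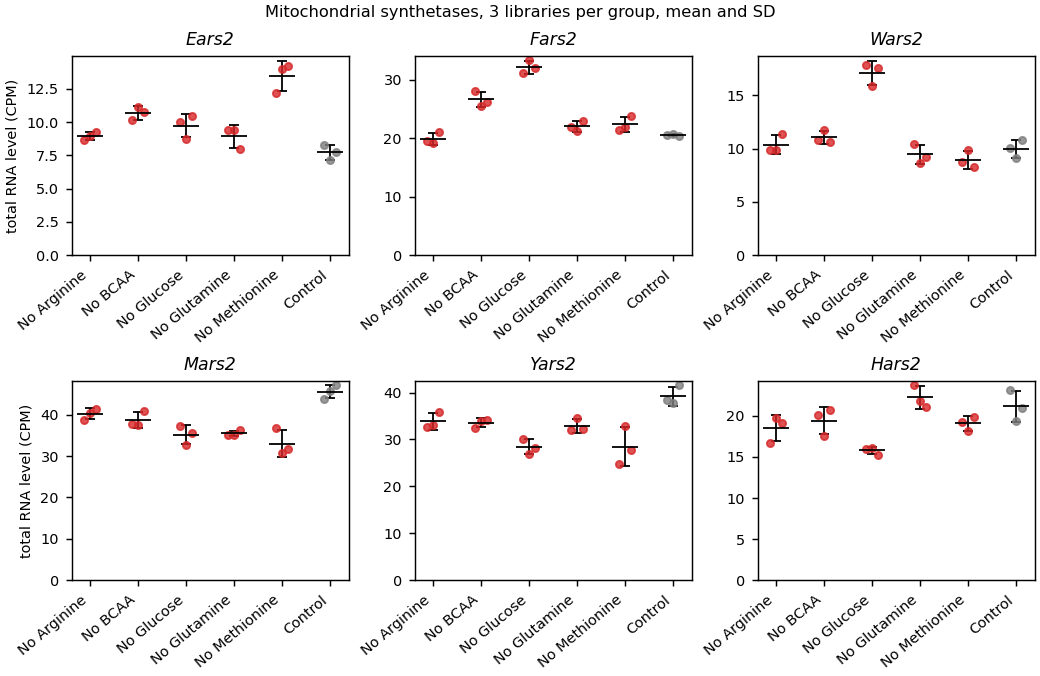
Total RNA level in CPM of 6 mitochondrial synthetase mRNAs in each of the 3 libraries per group (points), with the group mean and SD (black bars), the deprived groups in red and Control on the right in grey. Ears2 is highest without methionine, Fars2 and Wars2 are highest without glucose, and Mars2 and Yars2 lie below Control in the deprived groups.

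Mars2 and Yars2, for methionine and tyrosine, fell in 4 deprivations each. Mars2 had 37.6, 37.5 and 40.9 CPM without BCAA, 37.3, 32.6 and 35.6 without glucose, 35.2, 35.1 and 36.2 without glutamine and 36.7, 30.7 and 31.6 without methionine, against 43.9, 45.7 and 47.1 CPM in Control. All these libraries were below every Control library. The changes were -0.24 ± 0.07, -0.37 ± 0.07, -0.36 ± 0.07 and -0.47 ± 0.07, with -0.18 ± 0.07, adjusted p = 0.13 without arginine, where the libraries (38.7, 40.5 and 41.3 CPM) were also below those of Control. Yars2 changed by -0.23 ± 0.08, -0.47 ± 0.09, -0.25 ± 0.08 and -0.46 ± 0.09; its call without BCAA was lost in all 6 fits with 1 library left out (-0.25 to -0.18) and that without glutamine in 3 of 6 (-0.29 to -0.21). The call of Mars2 without BCAA was lost without No BCAA replicate 1, No BCAA replicate 2 or Control replicate 3 (-0.28 to -0.21). Hars2 fell without glucose (-0.42 ± 0.09), Iars2 without glucose (-0.20 ± 0.06) and glutamine (-0.29 ± 0.06), and Nars2 and Rars2 without glutamine (-0.31 ± 0.10 and -0.26 ± 0.08). Without No Glutamine replicate 1 both of the last were not called (-0.36 to -0.25 and -0.30 to -0.23 over 6 fits each), Nars2 was not called without Control replicate 1 either, and Iars2 was not called for glucose without No Glucose replicate 3 (-0.21 to -0.17). Aars2, Cars2, Tars2 and Vars2 were not called in any of the 5 comparisons, with changes between -0.21 and 0.23.

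In polysome RNA cytosolic members rose in all 5 deprivations, arginine removal included. Polysome levels are relative to the other mRNAs of the same libraries, and the amount of RNA on polysomes was not analysed here. Of the 18 cytosolic members 14 rose without arginine, 17 without BCAA, 15 without glucose, 16 without glutamine and all 18 without methionine, and 0 fell in any of the 5, also at an unadjusted p under 0.05 in edgeR and in DESeq2. The share of all genes that rose was 19%, 28.7%, 29.6%, 32.2% and 34.3%, and the share called in either direction was 40.5%, 56.1%, 59%, 64.5% and 69%. Medians of the 18 were 0.40, 0.92, 0.74, 0.98 and 0.98, where the medians of all genes lay between -0.03 and -0.01. The summed share of polysome counts on the 18 genes was 0.592% ± 0.0272 without arginine and 0.947% ± 0.0240 without methionine, against 0.472% ± 0.0274 in Control (SD, n = 3 each).

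Aars1 had 1014, 1011 and 862 CPM in polysome RNA without glutamine and 854, 834 and 952 without methionine, against 252, 176 and 209 CPM in Control. The lowest deprived library held over 3 times the highest of Control, and the changes were 2.18 ± 0.14, adjusted p = 2.3e-10 and 2.05 ± 0.14, adjusted p = 4.4e-10. Without arginine the polysome level of Aars1 was 349, 296 and 261 CPM, above every Control library (0.51 ± 0.14, adjusted p = 0.0067), a call lost without No Arginine replicate 1 (0.39 to 0.65 over 6 fits). Tars1 rose by between 0.56 ± 0.11 (No Arginine) and 1.91 ± 0.11 (No Methionine), Nars1 by between 0.47 ± 0.10 (No Arginine) and 1.80 ± 0.11 (No Glutamine), and Cars1 by between 0.46 ± 0.10 and 1.57 ± 0.10 in the same comparisons. Lars1 rose by 1.61 ± 0.16 without methionine and 1.60 ± 0.16 without glucose.

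Eprs1 was the complex member with the largest rise on polysomes. It had 368, 329 and 293 CPM without arginine, 609, 496 and 506 without BCAA, 789, 697 and 642 without glucose, 678, 649 and 579 without glutamine and 681, 663 and 686 without methionine, against 223, 198 and 192 CPM in Control. Every deprived library was above every Control library, and the changes were 0.69 ± 0.10, 1.39 ± 0.10, 1.80 ± 0.10, 1.64 ± 0.10 and 1.73 ± 0.10. Rars1, which in total RNA was called only without glutamine, had 211, 187 and 169 CPM on polysomes without arginine and 304, 318 and 275 without glutamine, against 137, 127 and 125 CPM in Control. It rose by 0.54 ± 0.09, adjusted p = 0.00018 without arginine, its own amino acid, and by 0.92 ± 0.09, 0.97 ± 0.09, 1.21 ± 0.09 and 0.93 ± 0.09 in the others. Mars1 had 286, 326 and 345 CPM without methionine, against 108, 99.0 and 105 CPM in Control (1.62 ± 0.11, adjusted p = 3.1e-10), and Qars1 rose by 0.70 ± 0.07, adjusted p = 4e-08 without glutamine. Vars1 and Mars1 rose by 0.65 ± 0.12 and 0.65 ± 0.11 without arginine. Kars1 was called in 2 of 5 comparisons, with 0.36 ± 0.06 without methionine and 0.20 ± 0.06 without BCAA.

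The ISR list behaved alike on polysomes, where 20, 25, 25, 24 and 24 of its 26 tested genes rose and at most 1 fell. On polysomes Ddit3 rose by 1.52, 3.81, 3.29, 3.91 and 3.06, Atf4 by 0.61, 1.15, 1.25, 0.84 and 0.91, and Asns by 0.41, 1.22, 0.84, 1.39 and 1.23, each in the order arginine, BCAA, glucose, glutamine and methionine. Of the 16 partner genes tested there, 2 to 4 rose and 6 to 8 fell, among them Ptrh2, a peptidyl-tRNA hydrolase (-1.35 ± 0.07 without methionine), and the scaffold gene Eef1e1 (-1.23 ± 0.09). Over all genes 19% to 34.3% rose and 21.6% to 34.7% fell on polysomes in the 5 comparisons.

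Mitochondrial members on polysomes rose in 7, 4, 7, 5 and 11 cases of 15 and fell in 1, 2, 2, 2 and 3, in the same order. Of all genes 19%, 28.7%, 29.6%, 32.2% and 34.3% rose and 21.6%, 27.4%, 29.4%, 32.4% and 34.7% fell. Their medians were 0.13, 0.15, 0.17, 0.06 and 0.32. Ears2 rose in all 5, most without methionine (0.93 ± 0.07, adjusted p = 2.5e-09). Pars2 had 22.4, 22.4 and 23.9 CPM without methionine, against 12.4, 12.1 and 12.4 CPM in Control (0.90 ± 0.08, adjusted p = 1.9e-08), and rose also without glucose (0.49 ± 0.08) and arginine (0.34 ± 0.08). Sars2 rose by 0.78 ± 0.10 and Vars2 by 0.64 ± 0.10 without methionine, and Wars2 by 0.76 ± 0.07 without glucose. Yars2 fell in 4, most without methionine, where it had 34.5, 38.8 and 37.1 CPM, against 50.3, 55.7 and 54.4 CPM in Control (-0.54 ± 0.08, adjusted p = 5.1e-06). Fars2, which rose in total RNA without BCAA and glucose, fell on polysomes without methionine (-0.36 ± 0.07), glutamine (-0.35 ± 0.07) and arginine (-0.22 ± 0.07).

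In Control most complex members were scarcer in polysome RNA than in total RNA, relative to the other genes. The log2 ratio of polysome to total RNA in Control was lower than 0 for 5 of the 6 complex members: Eprs1 (-1.10 ± 0.10, adjusted p = 2e-11), Qars1 (-0.98 ± 0.06), Mars1 (-0.80 ± 0.09), Lars1 (-0.72 ± 0.16) and Rars1 (-0.38 ± 0.08). For the sixth, Kars1, it was 0.08 ± 0.05, adjusted p = 0.19. Of the 12 cytosolic members outside the complex, 7 were higher and 1, Tars1 (-0.28 ± 0.09), lower, a call lost in 2 of 6 fits with 1 library left out (-0.39 to -0.18). The highest were Hars1 (0.79 ± 0.06), Yars1 (0.71 ± 0.07), Gars1 (0.65 ± 0.06) and Wars1 (0.62 ± 0.06). Mitochondrial members were higher in 11 cases of 15 and lower in 0 (also 0 at an unadjusted p under 0.05 in edgeR and in DESeq2), where 37.6% of all genes were higher and 28% lower. The ratio is relative to the other mRNAs of the same libraries: with entries derived from ribosomal RNA left out of the scaling, the counts were 6 higher and 7 lower for the 18 cytosolic and 7 higher and 0 lower for the 15 mitochondrial members, and the median of all genes moved to -0.05 where it was 0.09. Atf4 had -0.60 ± 0.07, Ddit3 -0.10 ± 0.08 and Asns 0.25 ± 0.07.

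The DMSO libraries of the drug experiment also had a ratio below 0 for Qars1 (-0.59 ± 0.09), Eprs1 (-0.57 ± 0.13) and Mars1 (-0.52 ± 0.14), whereas Kars1 (0.58 ± 0.10) and Rars1 (0.34 ± 0.12) were higher and Lars1 was not called (-0.09 ± 0.16). Outside the complex 11 of 12 were higher, led by Hars1 (1.30 ± 0.10), Farsa (1.06 ± 0.11) and Cars1 (1.04 ± 0.11), and 12 of 15 mitochondrial members were higher, against 28.4% of all genes higher and 30.9% lower. Atf4 had -0.42 ± 0.10, Ddit3 0.95 ± 0.14 and Asns 0.47 ± 0.13 there.

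**Figure D4:**
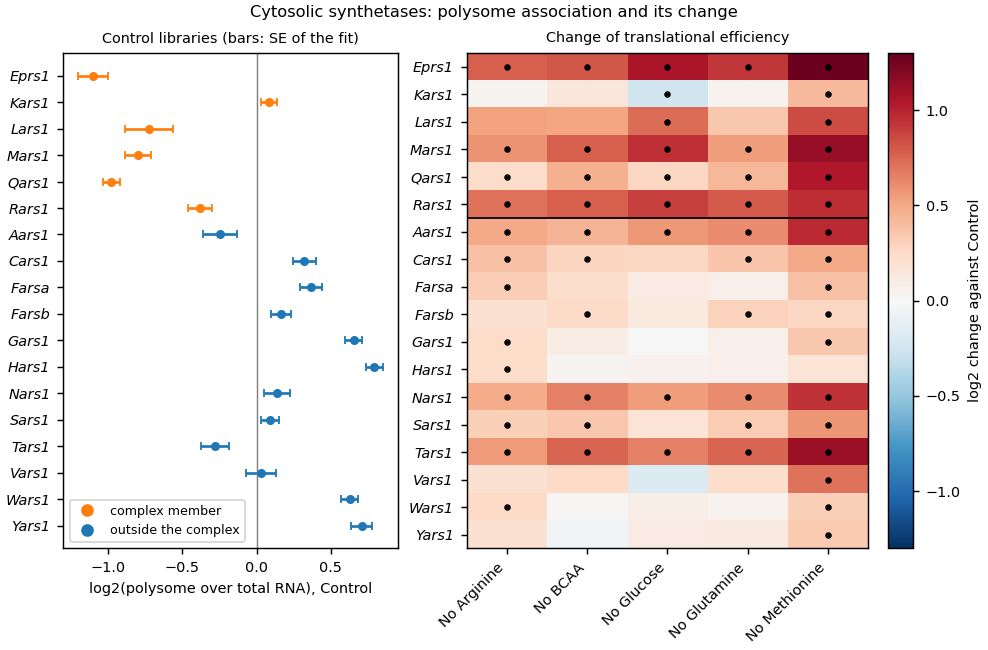
Left, log2 ratio of polysome to total RNA in Control for the 18 cytosolic synthetases, with the standard error of the fit, complex members in orange and others in blue. Right, change of that ratio in each deprivation against Control, black points marking an adjusted p under 0.05. The lowest ratios on the left belong to Eprs1, Qars1, Mars1 and Lars1, and Eprs1, Mars1, Rars1 and Tars1 are among the reddest rows on the right. The Control ratio on the left is also the reference on the right, so the panels are not independent.

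Translational efficiency (TE), the ratio of polysome to total RNA in a deprivation against that ratio in Control, rose for 13 of the 18 cytosolic members without arginine, 10 without BCAA, 8 without glucose, 10 without glutamine and 17 without methionine. Over all genes TE rose for 6.72%, 8.03%, 8.84%, 9.98% and 19.2%, and was called in either direction for 16.5%, 26.9%, 25.8%, 35.2% and 49.1%. It fell for 1 cytosolic member in the 5 comparisons, Kars1 without glucose (-0.26 ± 0.08, adjusted p = 0.012), a call that DESeq2 did not make. Medians of the 18 were 0.32, 0.32, 0.22, 0.34 and 0.64, and those of all genes -0.04, -0.12, -0.08, -0.15 and -0.14. TE depends on the scaling between polysome and total libraries. With entries derived from ribosomal RNA left out, the cytosolic counts were 13 higher without arginine, 15 without BCAA, 10 without glucose, 15 without glutamine and 18 without methionine, with 0 lower, and the medians of all genes were 0.03, 0.01, 0.05, 0.01 and -0.01. The share of higher among all TE calls was then 60.9%, 60.4%, 59.9%, 54.4% and 50.5%, where it was 40.7%, 29.8%, 34.3%, 28.4% and 39.2% with all entries.

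Eprs1 had the largest TE change of the members without arginine (0.78 ± 0.14, adjusted p = 0.00045), BCAA (0.81 ± 0.14, adjusted p = 8.2e-05), glucose (1.06 ± 0.14, adjusted p = 9.8e-07), glutamine (0.93 ± 0.14, adjusted p = 5.3e-06) and methionine (1.27 ± 0.14, adjusted p = 8.1e-09). Rars1 rose by 0.71 ± 0.11, 0.78 ± 0.11, 0.89 ± 0.11, 0.80 ± 0.11 and 0.96 ± 0.11 in the same order. Mars1 rose by 0.59 ± 0.12, 0.78 ± 0.12, 0.95 ± 0.12, 0.55 ± 0.12 and 1.13 ± 0.12, so that without methionine its efficiency changed together with its total RNA. Qars1 TE rose in all 5, by 0.43 ± 0.08 without glutamine and by 1.04 ± 0.08 without methionine, in which its total RNA had fallen. That fall is part of the TE value, and the polysome changes of Qars1 over the 5 were 0.29 to 0.93. Tars1 (0.56 to 1.11), Nars1 (0.48 to 0.94) and Aars1 (0.44 to 0.97) rose in all 5 too, and for Aars1 the calls without arginine and BCAA were lost in 7 and 6 of 12 fits with 1 library left out (0.38 to 0.61 and 0.34 to 0.56). Over all 33 members the TE calls without arginine numbered 15, with 7 when No Arginine polysome replicate 1 was left out and 9 when Control total replicate 1 or Control polysome replicate 2 was. The 6 complex members had median TE changes of 0.55, 0.64, 0.81, 0.49 and 1.00. The 12 others had 0.29, 0.26, 0.12, 0.27 and 0.44. These medians describe 2 groups of genes, without a test. The Control ratio, low for most complex members, is the reference of every TE change, so the TE changes are not independent of it.

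Lars1 and Vars1, whose total RNA rose, had fewer TE calls. Lars1 TE rose without glucose (0.72 ± 0.23, a call lost in 4 of 12 fits with 1 library left out, 0.46 to 0.94) and methionine (0.85 ± 0.23), and had 0.51 ± 0.23, adjusted p = 0.096 without BCAA. Vars1 rose without methionine (0.71 ± 0.14) and had 0.26 ± 0.14, adjusted p = 0.18 without BCAA. Yars1, Gars1 and Wars1 had TE changes between -0.04 and 0.12 without BCAA, glucose and glutamine. The scaffold gene Eef1e1 went the other way: its TE fell without arginine (-0.42 ± 0.14), glucose (-0.64 ± 0.14), glutamine (-0.64 ± 0.14) and methionine (-1.39 ± 0.14, adjusted p = 2.2e-09). Aimp2 TE fell without methionine (-0.43 ± 0.12) and Aimp1 TE without glucose (-0.49 ± 0.10). For 0 or 1 of the 17 partner genes TE rose in a deprivation, and for 1 to 9 it fell. TE of ISR genes rose for 4, 5, 5, 4 and 10 of 26 and fell for 1, 4, 1, 6 and 10. Over all genes TE rose for 6.72%, 8.03%, 8.84%, 9.98% and 19.2% and fell for 9.81%, 18.9%, 16.9%, 25.2% and 29.9%. Atf4 TE rose without BCAA (0.43 ± 0.09) and glucose (0.57 ± 0.09) and had 0.23, 0.12 and 0.06 without arginine, glutamine and methionine. Ddit3 TE rose without BCAA (0.43 ± 0.11) and glucose (0.31 ± 0.11), and Asns TE without arginine (0.34 ± 0.09), glutamine (0.34 ± 0.09) and methionine (0.51 ± 0.09).

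Among mitochondrial members TE rose for 2, 0, 2, 1 and 7 of 15 and fell for 0, 2, 1, 1 and 1, in the order arginine, BCAA, glucose, glutamine and methionine. At an unadjusted p under 0.05 in edgeR, 1 was higher without BCAA and 0 were lower without arginine, and DESeq2 called 2 and 0. TE of 6.72%, 8.03%, 8.84%, 9.98% and 19.2% of all genes rose in these comparisons, and that of 9.81%, 18.9%, 16.9%, 25.2% and 29.9% fell. With entries derived from ribosomal RNA left out, the counts were 4, 2, 4, 4 and 9 higher and 0, 1, 1, 1 and 1 lower. Fars2 TE fell without BCAA (-0.59 ± 0.09), glucose (-0.68 ± 0.09, adjusted p = 2.1e-06), glutamine (-0.59 ± 0.09) and methionine (-0.57 ± 0.09), the first 2 being deprivations in which its total RNA had risen. Those rises are part of the TE values, and its polysome changes over the 5 deprivations were -0.36 to 0.05. Tars2 TE fell without BCAA (-0.24 ± 0.09, adjusted p = 0.04), a call lost in 9 of 12 fits with 1 library left out (-0.29 to -0.20). Mars2, whose total RNA fell in 4 deprivations and was not called without arginine, had a higher TE without arginine (0.39 ± 0.09), glucose (0.43 ± 0.10), glutamine (0.31 ± 0.10) and methionine (0.42 ± 0.10). Its polysome changes over the 5 deprivations were 0.04 to 0.23, with 1 call, so the lower total RNA makes up part of these TE values. Iars2 TE rose without arginine (0.40 ± 0.09) and methionine (0.53 ± 0.09), Nars2 TE without glucose (0.35 ± 0.12) and Aars2 TE without methionine (0.68 ± 0.16). Ears2 TE was not called in any comparison, with changes between 0.02 and 0.18.

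Halofuginone, which blocks the proline activity of EPRS1, moved the mRNA of few genes of any kind. The 3 drug comparisons share the DMSO libraries. Eprs1, the target, had 242, 231 and 223 CPM with halofuginone, against 265, 184 and 220.4 CPM with DMSO, and the groups overlapped (0.05 ± 0.12, adjusted p = 0.92). In edgeR 0 of the 33 members were called in total RNA, polysome RNA or TE, where 0.279%, 0.0491% and 0% of all genes were called. At an unadjusted p under 0.05, 1 cytosolic member was lower in total RNA (Farsa, -0.24 ± 0.10) and 0 were so in polysome RNA or TE, and DESeq2 called 0 in all 3. Aars1 had 0.14 ± 0.15, adjusted p = 0.81 in total RNA and 0.31 ± 0.15, adjusted p = 0.43 on polysomes. Of 26 ISR genes 9 rose in total RNA, among them Ddit3 (0.85 ± 0.08, adjusted p = 5.3e-05), Atf4 (0.49 ± 0.06, adjusted p = 0.00061), Chac1 (1.77) and Sesn2 (0.97), while Asns had 0.14 ± 0.10, adjusted p = 0.7.

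With Torin1 the cytosolic synthetase mRNAs went both ways. In total RNA 7 cytosolic members fell and 4 rose, where 13.3% of all genes fell and 13.3% rose. Yars1 had 77.6, 75.0 and 91.2 CPM with Torin1, against 144, 129.5 and 128 CPM with DMSO, and fell by 0.72 on the log2 scale (adjusted p = 5.3e-05). Aars1 had 108, 101 and 134 CPM, against 200.0, 157 and 173 CPM with DMSO (-0.63 ± 0.15, adjusted p = 0.0045), and Cars1 had 79.6, 77.5 and 81.4 CPM, against 122, 100.3 and 105 CPM (-0.46 ± 0.08, adjusted p = 0.00047). For these 3 genes the groups did not overlap. Nars1 (-0.40 ± 0.11), Gars1 (-0.34 ± 0.07), Hars1 (-0.28 ± 0.08) and Farsa (-0.27 ± 0.10) fell too, while Qars1 (0.35 ± 0.07), Vars1 (0.28 ± 0.08), Kars1 (0.22 ± 0.07) and Farsb (0.21 ± 0.07) rose. All 7 that fell lie outside the complex, as do 12 of the 18 cytosolic members. Of the 4 that rose, Qars1 and Kars1 belong to it and Vars1 and Farsb do not. The other complex members, Eprs1, Lars1, Mars1 and Rars1, were not called. The calls of Farsb, Farsa and Kars1 were lost in 6, 5 and 5 of 6 fits with 1 library left out, those of Hars1, Nars1 and Vars1 in 3, 2 and 2, that of Aars2 in 1, and those of Yars1, Aars1, Cars1, Gars1 and Qars1 in none; without Torin1 replicate 1, 8 members were called in place of 13. Among mitochondrial members Mars2 (-0.50 ± 0.11, adjusted p = 0.0028) and Aars2 (-0.42 ± 0.12, adjusted p = 0.013) fell and 0 rose in edgeR (1 at an unadjusted p under 0.05, and 0 in DESeq2). Of 26 ISR genes 16 fell: Atf4 changed by -0.58 ± 0.06, adjusted p = 2.9e-06, Ddit3 by -0.13 ± 0.09, adjusted p = 0.31 and Asns by -0.23 ± 0.10, adjusted p = 0.1. Xpot fell by 0.67 on the log2 scale.

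**Figure D5:**
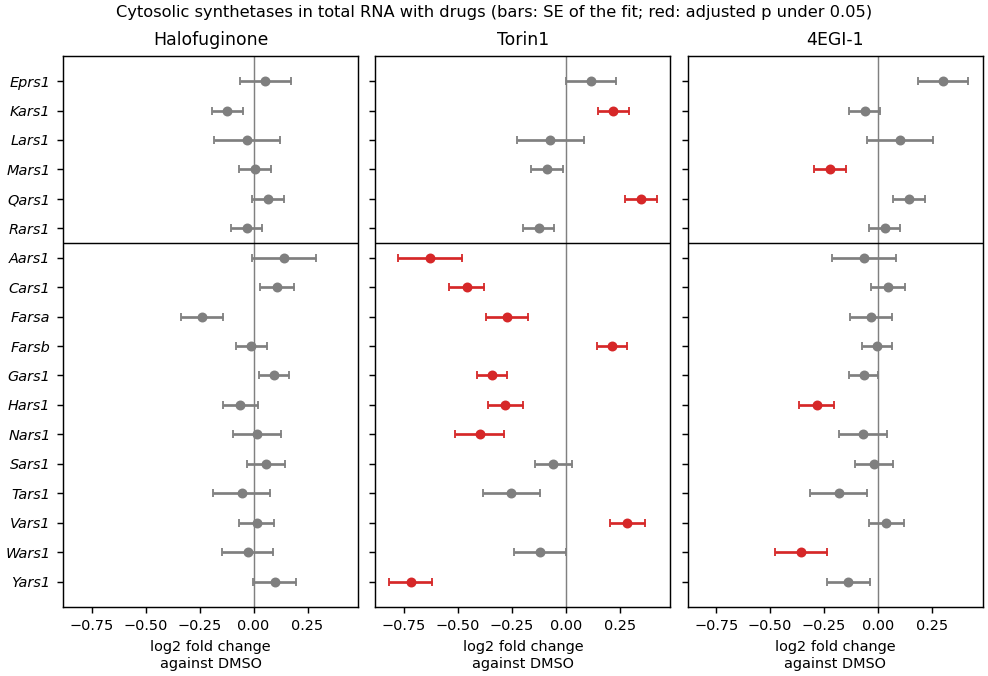
Log2 fold change against DMSO of the 18 cytosolic synthetase mRNAs in total RNA with halofuginone, Torin1 and 4EGI-1, with the standard error of the fit, complex members above the black line. Red points have an adjusted p under 0.05: 0 with halofuginone, 11 with Torin1 (4 higher and 7 lower) and 3 with 4EGI-1, all lower.

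On polysomes Torin1 raised Mars1 (0.53 ± 0.17, adjusted p = 0.043) and Qars1 (0.52 ± 0.12, adjusted p = 0.005) and lowered Yars1 (-0.55 ± 0.12, adjusted p = 0.0055) and Hars1 (-0.44 ± 0.12, adjusted p = 0.017), against 8.48% and 8.3% of all genes. Qars1 had 136, 138 and 154 CPM with Torin1, against 92.4, 101 and 105 CPM with DMSO, without overlap. Mars1 had 108, 139 and 111 CPM, against 73.0, 104 and 71.5 CPM with DMSO, where replicate 3 of DMSO stood apart, and its call was lost in 5 of 6 fits with 1 library left out (0.40 to 0.76); the call of Hars1 was lost in 4 (-0.49 to -0.37). In place of 4 calls there were 2 without DMSO replicate 1, Torin1 replicate 1 or Torin1 replicate 4, and 10 without DMSO replicate 3. Torin1 replicate 3 and 4EGI-1 replicate 2 of polysome RNA carry an R in their labels whose meaning is not given, and with both left out 3 members were called with Torin1 and 1 with 4EGI-1. Of the mitochondrial members 0 were called in edgeR, 4 being higher and 1 lower at an unadjusted p under 0.05, and DESeq2 called 1. TE of 0 members was called, where 1.79% of all genes were, with 3 members at an unadjusted p under 0.05 and 0 called by DESeq2; the largest TE change was that of Mars1 (0.66 ± 0.20, adjusted p = 0.097). Atf4 had -0.50 ± 0.13, adjusted p = 0.015 on polysomes, Ddit3 -0.39 ± 0.18, adjusted p = 0.14 and Asns -0.25 ± 0.14, adjusted p = 0.23.

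4EGI-1 changed few members. In total RNA Wars1 (-0.36 ± 0.12, adjusted p = 0.036), Hars1 (-0.29 ± 0.08, adjusted p = 0.014) and Mars1 (-0.22 ± 0.07, adjusted p = 0.035) fell and 0 members rose, where 12.3% of all genes fell and 14.1% rose; at an unadjusted p under 0.05, 2 were higher, and DESeq2 called 0 higher. Wars1 had 88.2, 114 and 136 CPM with 4EGI-1, against 154, 136 and 143 CPM with DMSO, so that the groups touched at 1 library. Each of these 3 calls was lost without 4EGI-1 replicate 2, without 4EGI-1 replicate 3 or without DMSO replicate 1, and those of Wars1 and Mars1 without DMSO replicate 4 as well; the change of Wars1 over these fits was -0.52 to -0.21, that of Hars1 -0.37 to -0.22 and that of Mars1 -0.29 to -0.16. In polysome RNA Eprs1 had 200.4, 195 and 198 CPM with 4EGI-1, against 117, 162 and 139.9 CPM with DMSO, and rose without overlap (0.50 ± 0.13, adjusted p = 0.01), the 1 call among the 33 members, where 28.6% of all genes were called. TE of 0 members was called (0.565% of all genes), with 1 at an unadjusted p under 0.05 and 0 by DESeq2. Of 26 ISR genes 11 rose and 2 fell in total RNA, with Ddit3 at 0.89 ± 0.08, adjusted p = 1.2e-06, Atf4 at 0.18 ± 0.06, adjusted p = 0.032 and Asns at -0.09 ± 0.10, adjusted p = 0.55.

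The 2 experiments differed in RNA selection and control, so their values stand side by side without a test. Aars1, Cars1, Nars1, Yars1 and Gars1 fell in total RNA with Torin1 and rose in 4 deprivations. Vars1 rose both with Torin1 and in all 5 deprivations, and Mars2 fell both with Torin1 and in 4 deprivations. Hars1 fell without arginine and with both Torin1 and 4EGI-1, whose comparisons share the DMSO libraries. Each of these Hars1 calls was lost in some fits with a library left out. So were the Torin1 calls of Nars1 and Vars1 and the call of Mars2 without BCAA.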

How the data were processed

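The deposited values were whole-number read counts per gene, not normalized; per the submitters' processing notes the tools were FastQC, MultiQC, Trimmomatic, STAR, HTSeq and edgeR, with build GRCm39, and versions are not given in the sources used here. The 449 entries listed by an identifier without a symbol stayed in the fits. The 18 monosome libraries were not analysed here.

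Each of 4 sets (nutrient or drug, total or polysome RNA) was filtered with edgeR's filterByExpr (minimum count 10), scaled by TMM and fitted over all its groups with the quasi-likelihood test (edgeR 4.0.16, limma 3.58.1, R 4.3.3); 12642, 12417, 12535 and 12223 genes were tested, and 13072 and 12745 for translational efficiency, an interaction fitted over total and polysome libraries. DESeq2 1.42.0, RLE size factors, no filter, ribosomal entries left out, replicate blocks and libraries left out were alternatives. P-values were adjusted by Benjamini-Hochberg over all genes tested. Simulated data in which 200 of 12558 genes changed 1.5-fold in the No BCAA group gave 79.5% of them back. The counts were drawn from the gene levels of Control total RNA with an assumed spread, and the changed genes were picked from those with higher mean counts.

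Libraries of equal number correlated in their deviations by 0.0353 to 0.0776 on average and were not taken as pairs. Libraries of one group differed by more than sampling noise, with a chi-square per degree of freedom of at least 3.46. The members and gene lists were chosen with earlier results of these data known. Members called in most comparisons, the synthetases of each removed amino acid, up to 6 called members per direction, and Atf4, Ddit3 and Asns were named. Some genes of the partner list are counted but not reported by name here.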

Additional observations from a re-analysis of the deposited data

How the results depend on the processing

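The direction of every named member call was kept under the alternatives run. Of 505 calls, 9 were lost with RLE size factors, 6 with DESeq2, 11 without the filter on low counts and 7 with entries derived from ribosomal RNA left out. The replicate block kept all 377 calls in total and polysome RNA, and a replicate block by lysate kept 127 of 128 for polysome against total RNA; with the latter 1 member was called for translational efficiency with Torin1, where it was 0. Counts of called members moved by over 1.5 times in a few cases, and the cause was not tested. On polysomes DESeq2 called 7 with Torin1, where edgeR called 4, and 2 with 4EGI-1, where edgeR called 1; leaving out ribosomal entries also gave 2 for 4EGI-1. For translational efficiency without glutamine DESeq2 called 19 and the fit without ribosomal entries 20, where it was 12. Leaving out 1 library at a time lost 389 of 3486 calls and gave 1 to 3 called members without arginine in total RNA (2 with all), 1 to 5 with 4EGI-1 (3) and 8 to 10 with Torin1 (13). It gave 2 to 10 with Torin1 on polysomes (4), and 7 to 16 without arginine (15), 12 to 19 without glutamine (12) and 0 to 2 with Torin1 (0) for translational efficiency. The range was 5 to 6 for No BCAA against No Glutamine (8; 5 without No BCAA replicate 1, No Glutamine replicate 1 or No Glutamine replicate 2), 5 to 11 for No BCAA against No Methionine (12; 5 without No BCAA replicate 1) and 7 to 10 for No Glucose against No Methionine (11; 7 without No Glucose replicate 1). The highest count for efficiency without glutamine came without No Glutamine total replicate 1, and that with Torin1 without DMSO polysome replicate 3. With 4EGI-1 in total RNA 1 was called without 4EGI-1 replicate 2 or 3 or DMSO replicate 1 or 4, and 5 without 4EGI-1 replicate 4. Groups of 3 limit precision. Of genes simulated to change 1.5-fold without BCAA, 79.5% were recovered in total RNA and 32.5% in translational efficiency. At 1.25-fold the simulation recovered 6% and 0.5%. In the data some smaller changes were called, such as that of Kars1 without glucose (0.15 on the log2 scale in total RNA). A member not called may still have changed. The simulation assumed its spread and changed genes with higher mean counts, so it does not measure the precision of these libraries.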
